A study of Mus musculus with 16 samples.

Results

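The 10 genes described here mark the inner lining of the heart and its vessels. They are the genes *Nfatc1*, *Cytl1*, *Emcn* and *Plvap*, taken as endocardial, *Apln*, *Aplnr* and *Cldn5*, taken as genes of coronary vessels, and *Cdh5*, *Tie1* and *Lmo2*, which endothelial cells share. They were chosen by name, and every probe that the array annotates to them was used, which gave 12 probes (*Nfatc1* and *Plvap* have 2 each) among 55681 probes and 34821 gene names in all. Cardiomyocytes (CMs) of CD1 wild-type mice had been sorted by the integrin ITGA6 (CD49f) and their RNA measured on 16 Agilent arrays, 4 per group. At embryonic day (E) 15.5, pools of 20 to 30 hearts gave living ERBB-2+ cells that were ITGA6low (EL) or ITGA6high (EH). At postnatal day (P) 2, non-myocytes were removed magnetically from pools of 15 hearts, and the cells that remained were sorted as ITGA6low (PL) or ITGA6high (PH), without ERBB-2. At least 50000 cells were collected per fraction, and Cy3-labeled cRNA was made from 10 ng RNA. The arrays carry the sample numbers 2, 3, 6 and 8 at E15.5 and 2, 3, 4 and 5 at P2. Each sample pools many hearts and holds whatever cells passed the gates, since only the surface proteins of the sort and, at P2, the bead depletion defined the cells.

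The endocardium is the endothelium that lines the chambers of the heart, and it depends on the transcription factor NFATc1 for valve formation. The coronary endothelium forms a separate network within the heart wall that matures around birth, and apelin and its receptor are known from its growing tips and veins. Both tissues share the junction protein VE-cadherin and receptors of the Tie family. LMO2 also acts in blood-forming cells and is thus not specific to endothelium. The question was whether the endothelial signal of the EH arrays resembled endocardium or coronary vessels.

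At E15.5, most of these genes were higher in EH than in EL, and both kinds were among them. *Cdh5*, *Tie1*, *Emcn*, *Cytl1* and 1 of 2 *Plvap* probes were not well above background on any EL array and were so on all 4 EH arrays. *Cldn5* and *Aplnr*, from the coronary group, rose as well. *Nfatc1*, the defining endocardial gene, was higher in EH by less than 3-fold, and *Apln* did not pass the test. At P2 *Lmo2* was the gene that passed both the test and the limit of 3-fold. Of the *Nfatc1* probes 1 passed the test there, again below 3-fold. *Cdh5*, *Tie1*, *Emcn*, *Cytl1* and *Aplnr* were well above background on 0 of 8 P2 arrays. In such bulk samples, fewer cells of a type and less RNA per cell cannot be told apart.

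**Figure D1:**
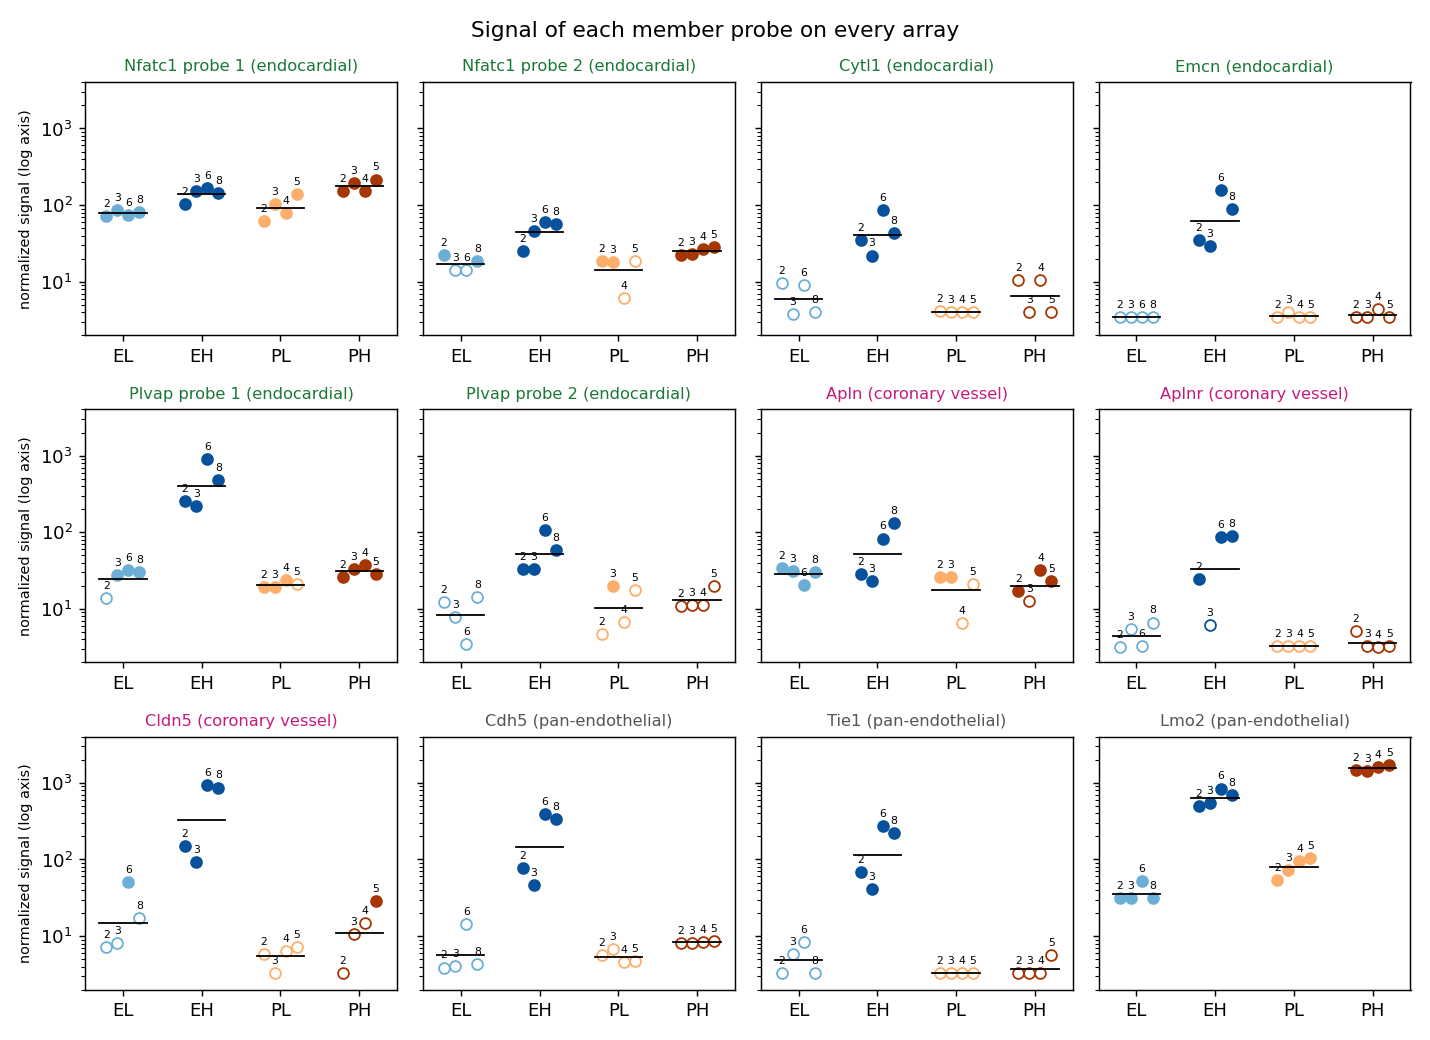
Normalized signal (log axis) of each of the 12 probes on all 16 arrays, by group (EL, EH, PL, PH, 4 arrays each). Numbers are sample numbers, filled points were well above background, open points were not, and lines are means of the log2 values. Apart from *Nfatc1*, *Apln* and *Lmo2*, the genes were bright mainly on the EH arrays, with EH 6 and EH 8 above EH 2 and EH 3.

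All signals are quantile-normalized processed signals, averaged where a probe has several spots. A call required a change of 3-fold or more together with an adjusted p no higher than 0.05, from limma fitted to all 16 arrays with Benjamini-Hochberg adjustment over 55681 probes. The scanner software marks spots well above background. The dimmest signal so marked differed between arrays, from 8.48 to 14.3 in EH, 11.7 to 16.3 in EL and 14.0 to 23.2 at P2, so that the limit of detection was not equal for the groups. Where this held on 0 of 4 arrays of the dimmer group, the fold-change is given as a lower bound ("at least"), which sets the brighter group against the dimmest signal still well above background on each array of the other group, or the probe's own signal if that was higher. By these limits 9 of the 12 probes, of 8 genes, were higher in EH than in EL and 0 were lower. Among all probes, 1.17% were called higher and 0.454% lower. At any fold, limma gave 11 of the 12 probes an adjusted p within the limit, all of them higher in EH, where 4.27% of all probes were higher and 3.83% lower. The median log2 fold-change was 3.45 over the 12 probes and -0.02 over all probes. With 4 arrays against 4, a two-sided exact permutation test cannot give a p under 0.0286, and it gave this value for each of the 10 probes whose EH and EL arrays did not overlap (7.02% of all probes did so in this direction).

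Of the shared endothelial genes, *Cdh5* encodes VE-cadherin, the adhesion molecule of endothelial junctions (probe on chromosome 8 of the build mm9, 106668159 to 106668218, plus strand). Its signal was 3.89, 4.03, 14.4 and 4.29 in EL 2, 3, 6 and 8, and 77.3, 46.0, 390.8 and 333.1 in EH 2, 3, 6 and 8. No EL array was well above background, and every EH array was, with EH 6 and EH 8 several-fold above the others. With limma, *Cdh5* was thus at least 10.0-fold higher (log2 fold-change 4.71 ± 0.61, the standard error or SE of the fit, adjusted p = 0.000182). *Tie1* encodes an orphan receptor tyrosine kinase of endothelium (chromosome 4, 118144132 to 118144191, minus strand). Its signal was 3.29, 5.89, 8.47 and 3.34 in EL and 69.2, 41.3, 274.5 and 219.8 in EH, in the same order of arrays. The order of the EH arrays was that of *Cdh5*, and the groups did not overlap. The difference was at least 7.84-fold (log2 4.57 ± 0.51 SE, adjusted p = 5.72e-05). The array reads *Tie1* through this 60-base probe, and *Emcn* through the other. Both genes passed every comparison with EH and were not well above background in any other group, which also held for *Cdh5*, not shown here:
Tie1 probe: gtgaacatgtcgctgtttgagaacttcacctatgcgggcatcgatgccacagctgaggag
Emcn probe: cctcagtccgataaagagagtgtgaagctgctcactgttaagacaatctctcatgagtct

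*Lmo2* encodes a LIM-domain adaptor of blood and endothelial transcription complexes (chromosome 2, 103821857 to 103821916, plus strand). It was well above background on all 16 arrays. The signal was 31.2, 31.5, 52.5 and 31.3 in EL, and 503.1, 551.4, 842.5 and 692.1 in EH. All EH arrays lay far above all EL arrays, and the spread within EH was small beside that of *Cdh5* and *Tie1*. The difference was 17.8-fold (log2 4.15 ± 0.23 SE, adjusted p = 1.32e-07).

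Among the endocardial genes, *Nfatc1* encodes the transcription factor of endocardial and valve development, and its probes agreed in direction. Probe 1, the brighter, gave 72.4, 85.8, 75.3 and 80.4 in EL, and in EH it gave 103, 152.8, 169.5 and 143.2. All of these were well above background, EL included, and the groups did not overlap. The change was 1.78-fold (log2 0.84 ± 0.22 SE, adjusted p = 0.0338), short of the limit of 3-fold. Probe 2 gave 22.0, 14.2, 14.1 and 18.8 in EL, where 2 of 4 arrays were well above background, and 25.2, 45.5, 60.4 and 56.2 in EH (log2 fold-change 1.39, adjusted p = 0.0243). This probe was also below 3-fold. With the sample number as a block, its adjusted p was 0.0764, and without EH 2 it passed both limits (1.68, adjusted p = 0.00888). Both depended on single arrays. With limma, the adjusted p of probe 1 was above 0.05 when any 1 of the 8 E15.5 arrays other than EH 2 was left out, and 0.102 at most (without EH 6). That of probe 2 was above 0.05 without EL 3, EL 6, EH 3, EH 6 or EH 8, and 0.0781 at most (without EH 6).

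*Cytl1* encodes a secreted cytokine-like protein (chromosome 5, 38130789 to 38130848, plus strand). Its signal was 9.56, 3.81, 9.07 and 4.03 in EL and 35.3, 22.0, 85.2 and 43.2 in EH. It was well above background on 0 EL and 4 EH arrays, and thus at least 2.81-fold higher in EH (log2 2.77 ± 0.45 SE, adjusted p = 0.00133). *Cytl1* lost the call with normexp (0.61) and with a floor (1.49). *Emcn* encodes endomucin, a sialomucin of the endothelial surface (chromosome 3, 137086389 to 137086448, plus strand). EL arrays lay between 3.45 and 3.51, and EH arrays gave 34.9, 29.7, 155.4 and 90.0. The nearly constant EL values are at the bottom of the scale, and EH exceeded them on every array, at least 4.22-fold (log2 4.15 ± 0.39 SE, adjusted p = 1.17e-05). With normexp *Emcn* was not called (1.11).

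*Plvap* encodes the protein of the diaphragms of fenestrae and caveolae (both probes on chromosome 8, minus strand, probe 1 at 74021877 to 74021936 and probe 2 at 74030739 to 74030798). Probe 1 gave 13.8, 27.6, 32.7 and 29.9 in EL, with 3 of 4 arrays well above background, and 252.9, 222.1, 905 and 487.2 in EH. The difference of 16.1-fold (log2 4.01 ± 0.38 SE, adjusted p = 1.32e-05) was measured on both sides. Probe 2 gave 12.3, 7.76, 3.51 and 14.4 in EL, none of them well above background, and 33.6, 33.2, 107.4 and 59.4 in EH. It was at least 3.49-fold higher in EH (log2 fold-change 2.63, adjusted p = 0.00824), so that both probes were called in the same direction. Probe 2 lost the call with normexp (0.72) and without EL 6 and EH 6 (1.87, limma adjusted p = 0.0684).

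Of the coronary genes, *Apln* encodes the ligand apelin (chromosome X, 45378593 to 45378652, minus strand) and *Aplnr* its G protein-coupled receptor (chromosome 2, 84979638 to 84979697, plus strand). *Apln* gave 34.4, 31.7, 20.5 and 30.4 in EL and 28.2, 22.8, 82.9 and 133.7 in EH. EH 2 and EH 3 thus lay within the range of EL, whereas EH 6 and EH 8 lay above it. With limma, the log2 difference was 0.85 ± 0.57 SE (adjusted p = 0.518), and an exact permutation test gave p = 0.343. *Aplnr* gave 3.23, 5.39, 3.27 and 6.65 in EL, none well above background, and 24.6, 6.24, 85.6 and 88.3 in EH. EH 3 was not well above background and overlapped with EL. The receptor was at least 2.25-fold higher in EH (log2 2.90 ± 0.65 SE, limma adjusted p = 0.0116), while the exact permutation p was 0.0571.

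*Cldn5* encodes claudin-5 of endothelial tight junctions (chromosome 16, 18778046 to 18778105, plus strand). Its signal was 7.13, 8.08, 51.3 and 17.2 in EL, where EL 6 was well above background, and 149.6, 91.5, 937.9 and 868.4 in EH. The groups did not overlap. The means differed by 21.6-fold (log2 4.43 ± 0.87 SE, adjusted p = 0.00489), a size that rests on EL signals of which 3 of 4 were not well above background.

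The E15.5 arrays were split over 2 slides. Slide 2, scanned on another day, carried EH 6 with EL 3 and EL 6, and slide 1 the remaining 3 EH and 2 EL arrays. On slide 1 the log2 difference between EH and EL was above 0 for 12 of 12 probes, from 0.45 (*Apln*) to 4.69 (*Cdh5* and *Tie1*). On slide 2, with 1 EH array, it ranged from 1.08 (*Nfatc1* probe 1) to 5.68 (*Cdh5*). With slide as a term in the fit, 9 probes were called. Leaving out 1 array at a time left 9 or 10 of the 12 probes called. The fold-changes of *Cdh5*, *Tie1*, *Cldn5*, *Cytl1*, *Emcn* and *Plvap* probe 1 were lowest without EH 6 (log2 4.24, 4.15, 3.94, 2.42, 3.70 and 3.62) and highest without EH 3 (5.26, 5.05, 5.04, 3.06, 4.49 and 4.29). That of *Aplnr* was 2.40 without EH 8 and 3.69 without EH 3.

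At P2, 1 of the 12 probes was called in PH against PL, against 1.73% of all probes called higher and 0.916% lower, and it was that of *Lmo2*. Its signal was 54.6, 73.4, 94.8 and 104 in PL 2, 3, 4 and 5, and 1453, 1426, 1625 and 1692 in PH 2, 3, 4 and 5. All PH arrays lay far above all PL arrays, a difference of 19.5-fold (log2 4.29 ± 0.23 SE, adjusted p = 2.58e-08). *Nfatc1* probe 1 gave 62.1, 103.3, 79.6 and 140.4 in PL and 151.1, 197.1, 153.8 and 215.8 in PH. This was again a small change without overlap (log2 0.95 ± 0.22 SE, adjusted p = 0.0116), and again below 3-fold. *Lmo2* and this probe were the 2 of 12 with an adjusted p within the limit at any fold, both higher in PH, which held for 6.15% of all probes (5.41% were lower).

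The other genes did not pass the test at P2, and several were not well above background in either fraction. *Cdh5* lay between 4.61 and 6.72 in PL and between 8.01 and 8.72 in PH, not well above background on any of these arrays (log2 fold-change 0.63, adjusted p = 0.676). *Plvap* probe 1 gave 19.1 to 23.5 in PL and 26.4, 33.5, 37.9 and 28.8 in PH, without overlap (log2 fold-change 0.60, adjusted p = 0.466), as in 5 of the 12 probes, all higher in PH, and 6.54% of all probes in that direction. It was well above background on 3 PL and 4 PH arrays. *Cldn5* was well above background on PH 5 alone (29.0), and *Apln*, so on 2 PL and 3 PH arrays, ranged from 6.62 to 26.1 in PL and from 12.8 to 32.6 in PH. *Emcn*, *Tie1*, *Cytl1* and *Aplnr* were well above background on none of the 8 P2 arrays.

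**Figure D2:**
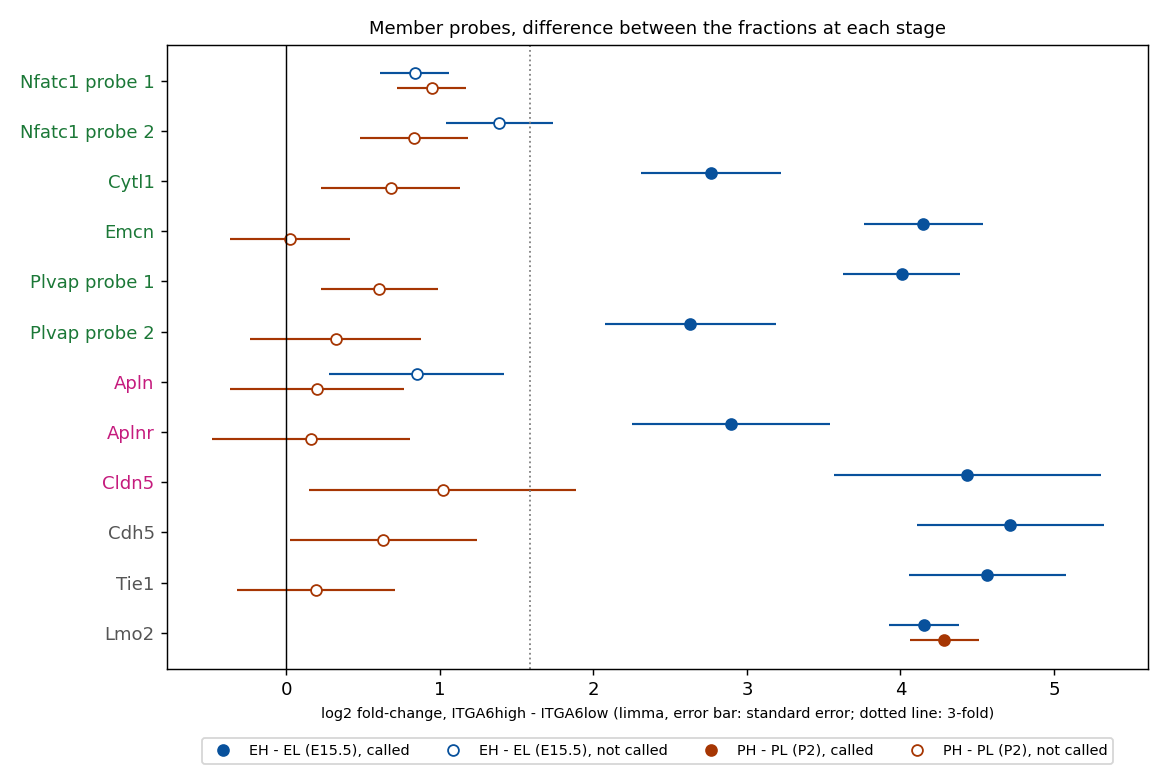
Log2 fold-change of ITGA6high over ITGA6low at E15.5 (EH - EL, blue) and P2 (PH - PL, brown) for the 12 probes, with limma's standard error (4 arrays per group). Filled points were called, and the dotted line marks 3-fold. *Lmo2* was called at both stages (4.15 and 4.29), and the other called probes at E15.5 alone.

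The interaction of fraction and stage asked whether the difference between the fractions changed between E15.5 and P2. For 4 of the 12 probes it was called, all with the larger difference at E15.5, compared with 0.602% of all probes in this direction. At any fold the count was also 4, all in this direction, against 1.35% of all probes (1.81% in the other). These were *Tie1* (4.37 on the log2 scale, adjusted p = 0.00393), *Emcn* (4.12, adjusted p = 0.000805), *Cdh5* (4.08, adjusted p = 0.0183) and *Plvap* probe 1 (3.40, adjusted p = 0.00289). *Tie1*, *Emcn* and *Cdh5* were not well above background on any EL, PL or PH array, so that their values do not measure the size of the difference and do not rank these genes. For *Cldn5* the interaction of 3.41 had a standard error of 1.23 and an adjusted p of 0.213, and for *Aplnr* it was 2.74 (adjusted p = 0.165, or 3.53 with 0.00391 without EH 3). *Cytl1* gave 2.09 (adjusted p = 0.123). For *Lmo2* the interaction was -0.13 (standard error 0.32, adjusted p = 0.913), and for *Nfatc1* probe 1 it was -0.11 (standard error 0.32, adjusted p = 0.925). Of the 4 called probes, 2 were endocardial, 2 pan-endothelial and 0 coronary, and whether the classes differ in this respect was not tested. The count depended on the treatment of dim signals. With normexp 1 probe was called, and *Emcn*, *Cdh5* and *Tie1* were not, whereas with a floor 7 were, the coronary *Cldn5* among them (4.03, adjusted p = 0.0153).

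Between the stages, 8 of the 12 probes, of 7 genes, were called higher in EH than in PH (2.1% of all probes) and 0 lower (1.3%). With normexp 3 of the 12 were called in EH against PH, and with a floor 5. At any fold 8 were higher and 1 lower, against 8.37% and 9.12% of all probes, and 8 of the 12 did not overlap with EH higher, against 9.55% of all probes. In EL against PL limma called 0 of the 12 (2.15% of all probes higher and 1.6% lower). *Lmo2* went the other way. It was lower in EH than in PH (log2 fold-change -1.28, limma adjusted p = 0.001) and lower in EL than in PL (-1.15, adjusted p = 0.00195), both below 3-fold. For *Nfatc1* probe 1 the difference was -0.34 between EH and PH (adjusted p = 0.384) and -0.23 between EL and PL (adjusted p = 0.575). In EL against PL, *Lmo2* was the 1 probe of 12 with an adjusted p within limma's limit at any fold, where 9.7% of all probes were lower in EL and 10.0% higher. All P2 arrays lay on 1 slide, with cells depleted of non-myocytes and sorted without ERBB-2, so that stage, slide, depletion and the ERBB-2 gate cannot be told apart.

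Within EH, the genes differed in how much they varied between arrays. The median SD of log2 signals over the 4 EH arrays was 0.17 for the 22250 probes detected on all 4 arrays of a group, with a 95th percentile of 0.66. The SD was 1.73 for *Cldn5*, 1.53 for *Cdh5*, 1.31 for *Tie1*, 1.22 for *Apln* and 1.13 for *Emcn*. It was 0.57 for *Nfatc1* probe 2, 0.33 for *Lmo2* and 0.31 for *Nfatc1* probe 1. The ratio of EH 6 and EH 8 to EH 2 and EH 3, from geometric means, was 7.71 for *Cldn5*, 6.05 for *Cdh5*, 4.59 for *Tie1* and 4.15 for *Apln*. For *Aplnr*, with EH 3 at the lowest signal still well above background on that array (14.3), the SD was 1.32 and the ratio at least 4.63. The ratio was 3.67 for *Emcn*, 2.80 and 2.39 for the *Plvap* probes, 2.18 for *Cytl1*, 1.45 for *Lmo2*, and 1.24 and 1.72 for the *Nfatc1* probes. In this ratio, each coronary gene of the 10 exceeded each endocardial gene of the 10, and *Lmo2* and *Nfatc1* had the lowest values. Among the further genes of the lists described below, this did not hold throughout. On EH 2, 3, 6 and 8, the coronary *Cd36* gave 498.9, 496.7, 568.9 and 559.5, and the endocardial *Vwf* 269, 127.8, 787.7 and 588. These are descriptions of 4 arrays, without a test.

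**Figure D3:**
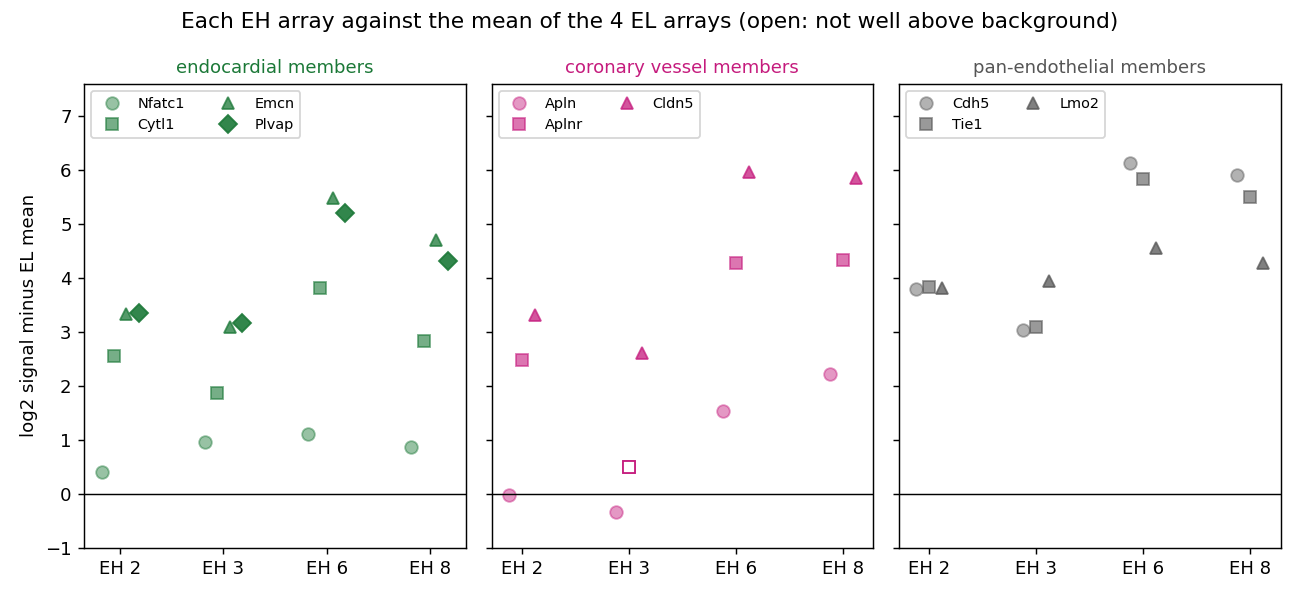
Log2 signal of each gene on EH 2, EH 3, EH 6 and EH 8 minus the mean of the 4 EL arrays, in panels for endocardial, coronary vessel and pan-endothelial genes (brightest probe of each). The open symbol was not well above background, and the EL mean is itself at background for *Cytl1*, *Emcn*, *Aplnr*, *Cdh5* and *Tie1*, so that differences between EH arrays can be read but not the height above 0. EH 6 and EH 8 lie above EH 2 and EH 3 for every gene except *Nfatc1*, where EH 8 lies below EH 3. The endocardial genes are lower on EH 8 than on EH 6.

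EH 6 and EH 8 had similar *Cdh5* signals and were compared gene by gene. The ratio of EH 8 to EH 6 was 0.507 for *Cytl1*, 0.538 and 0.553 for the *Plvap* probes and 0.579 for *Emcn*. For *Cdh5* it was 0.852, for *Tie1* 0.801 and for *Lmo2* 0.822. The coronary genes had 0.926 (*Cldn5*), 1.03 (*Aplnr*) and 1.61 (*Apln*), and *Nfatc1* 0.845 and 0.931. Between the same arrays, the summed leukocyte signal was 13380 on EH 6 against 2531 on EH 8, and the erythroid sum 123200 against 28240. With 1 array on each side, these differences have no replicate check, and the arrays lay on different slides. Over the group, the median fold-change of the endocardial genes minus that of the coronary genes was 0.49 (log2), 0.32 with dim signals set to a floor and -0.01 without EH 3. *Cytl1*, *Emcn* and *Aplnr* were well above background on 0 of 4 EL arrays, so that these values do not measure the balance of both kinds.

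Lists of further marker genes were examined in the same way. Of 25 further pan-endothelial genes on the array, 19 were called higher in EH and 0 lower, and the median log2 fold-change of the 25 was 3.07. Well above background on all 4 arrays of some group (termed detected) were 19, of which 10 were so through EH alone. Of the 9 detected in another group, 7 were called higher. Among all 25, named by the size of the fitted change, were *Cd93*, a receptor of endothelial and myeloid cells (4.59, adjusted p = 0.000291), *Flt1*, a VEGF receptor (4.36), and *Icam2*, an adhesion molecule (4.11). *She*, well above background on 0 EL arrays, was at least 8.82-fold higher. Detected but not called were *Kdr*, the main VEGF receptor (-0.34, adjusted p = 0.802), *Pecam1* (1.27, adjusted p = 0.0494, below 3-fold) and *Robo4* (1.18, adjusted p = 0.318). *Kdr* and *Pecam1* are defining genes of this list, so that 2 of its 4 defining genes, *Cdh5* and *Tie1*, were called. *Kdr* was well above background on all 16 arrays, with mean signals of 1037 (EL), 834.2 (EH), 808.1 (PL) and 618.6 (PH).

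Of 7 further endocardial genes on the array, 1 was called higher in EH, *Vwf*, which encodes von Willebrand factor (4.76, adjusted p = 0.000433). *Npr3*, a natriuretic peptide receptor and the other defining endocardial gene, had a mean of 45.2 in EH against 23.0 in EL (log2 0.72, adjusted p = 0.504), and was 23.2, 16.4, 90.7 and 50.5 on EH 2, 3, 6 and 8. *Gpr126* (0.79, adjusted p = 0.298) and *Tmem108* (-0.11, adjusted p = 0.87) did not pass the test. The median of the 7 genes was 0.79. Of these genes 4 were detected, 3 of them through EH alone. Both defining endocardial genes thus stayed short of the call.

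Of 11 further coronary genes on the array, 6 were called higher in EH and 0 lower, with a median of 1.60 over the 11. Of these genes 7 were detected, 2 of them through EH alone. Called and not detected were *Meox2* and *Dll4*. The others called were *Fabp4*, a fatty acid binding protein of capillaries (3.84, adjusted p = 0.00439), *Tcf15*, a transcription factor of heart endothelium (3.21, at least 4.41-fold, adjusted p = 0.00944), *Rgcc* (2.97, adjusted p = 4.58e-05) and *Gja4*, which encodes connexin 37 of arteries (2.30, adjusted p = 0.00918). *Fabp4* was 754.9, 351.9, 4076 and 4576 on EH 2, 3, 6 and 8, with the same order of EH 3, EH 2, EH 6 and EH 8 as *Apln* and *Aplnr*. *Cd36* (0.53, adjusted p = 0.0051, below 3-fold), *Aqp1* (0.52) and *Car4* (-0.32) were not called. Of the defining coronary genes, *Fabp4* was called at E15.5, and so was *Aplnr*, which lost the call with normexp (0.77), with the floor (1.47) and without EL 6 and EH 6 (2.30).

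At P2, none of the further endocardial and coronary genes was called in PH against PL, and the medians over the 7 and 11 genes were -0.09 and 0.09. With limma at any fold, *Cd36* and *Car4* were lower in PH (-0.97 with an adjusted p of 2.02e-05, and -0.75 with 0.00299). *Fabp4* gave 2.13 (adjusted p = 0.0919). Of the 25 pan-endothelial genes 0 were called higher and 1 lower, *Robo4* (-3.80, adjusted p = 0.000439), a roundabout receptor, with a mean of 253.5 in PL against 18.1 in PH. The median was 0.11.

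**Figure D4:**
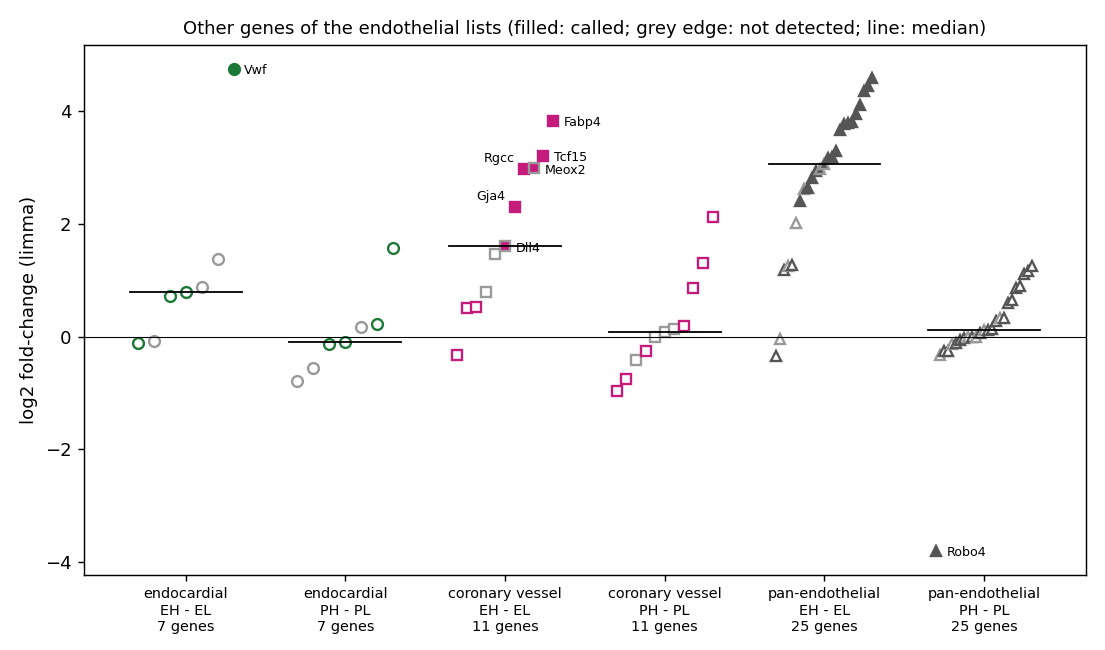
Log2 fold-change of the other genes of the endocardial (7), coronary vessel (11) and pan-endothelial (25) lists between the fractions at E15.5 (EH - EL) and P2 (PH - PL). Filled symbols were called, grey edges mark genes not detected, and lines are medians, which were 0.79, 1.60 and 3.07 at E15.5 and -0.09, 0.09 and 0.11 at P2.

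The labels name CMs, and the CM markers *Tnnt2* and *Actn2* were well above background on all 16 arrays. The summed signal of 11 CM genes was 713500, 734500, 698800 and 705100 on EH 2, 3, 6 and 8. Its probes are among the brightest, whose values quantile normalization largely fixes, so that this range says little about the share of CMs. The summed signal of the 28 pan-endothelial genes, which include *Cdh5*, *Tie1* and *Lmo2*, was 9398, 7488, 27680 and 24780 in EH, and 2498, 2627, 3429 and 2783 in EL. The endocardial list summed to 822.6, 695, 2406 and 1571 in EH and the coronary list to 2379, 1774, 7610 and 8104. The brightest probes in these sums in EH were those of *Egfl7*, *Plvap* and *Fabp4*, which does not rank the genes, since signals of different probes are not comparable.

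Markers of blood cells also differed between the E15.5 arrays. The methods describe that blood cells of the dissociated hearts were lysed, or else left out of the flow cytometry as CD45+ or Ter119+, and which of these preceded the sorts is not given in the sources used here. The leukocyte list (13 genes on the array) summed to 1671, 1226, 13380 and 2531 in EH 2, 3, 6 and 8, and to 746.2, 617.9, 2745 and 647.1 in EL 2, 3, 6 and 8. Its brightest probe in EH was that of *Csf1r*, a macrophage receptor, with 5508 on EH 6 against 428.4 to 893.6 on the others. *Ptprc*, the other defining leukocyte gene, was well above background on 2 of 4 EH arrays. Of the 13 genes 2 were called higher in EH, *Cd68* and *Lyz2*, and *Lyz2* was not detected. The log2 fold-change was below 0 for 0 of the 13, with a median of 1.82, beside 1.60 for the further coronary genes. The erythroid list summed to 68590, 21950, 123200 and 28240 in EH and to 15240, 17880, 113500 and 16300 in EL. It was led by the globin gene *Hba-a2*, and of its genes *Alas2* was well above background on all 8 E15.5 arrays and *Klf1* on 1. EH 6 and EL 6, which carry the same sample number, were thus highest in both lists. The labels do not say whether equal numbers mean the same experiment. When both arrays of number 6 were left out, which was decided after the data were seen, 7 of 12 probes were called in EH against EL. *Plvap* probe 2 (1.87, adjusted p = 0.0684) and *Aplnr* (2.30, adjusted p = 0.0978) no longer passed, whereas the log2 fold-change of *Cdh5* was 4.70 (adjusted p = 0.000278) and that of *Emcn* 3.70 (adjusted p = 4.38e-05). The interaction was called for 4 probes without these arrays. The leukocyte sums of the remaining EH arrays were still above those of EL with the same numbers. The part of blood cells in any of these values was not tested.

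**Figure D5:**
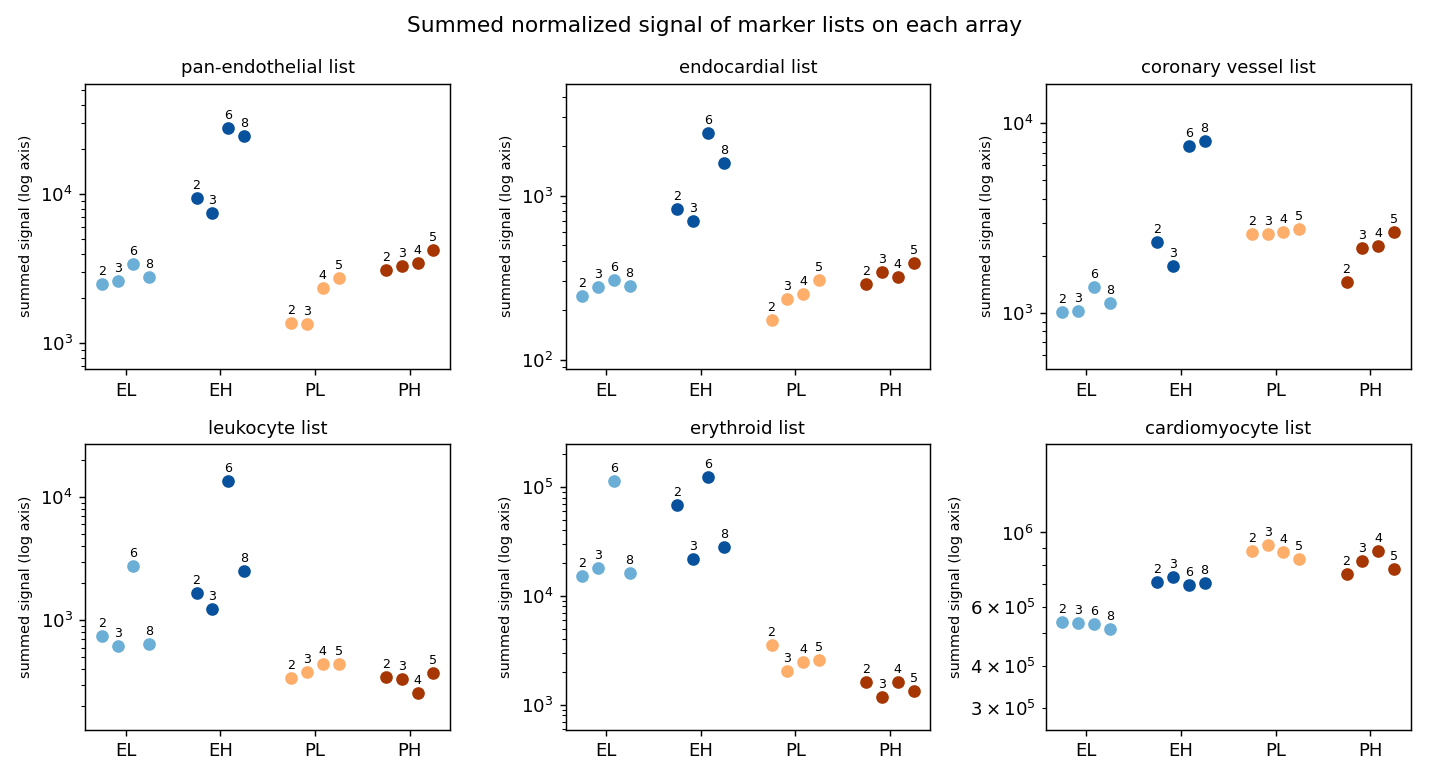
Summed normalized signal (log axis) of 6 marker lists on each of the 16 arrays, by group, with sample numbers above the points. The endothelial sums were highest on EH 6 and EH 8, and the leukocyte and erythroid sums on EH 6.

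Other non-myocyte lists were counted over all their genes on the array. Of 15 genes of fibroblasts and valve mesenchyme, 0 were called between EH and EL (median -0.34). The fibroblast genes *Col1a1* and *Pdgfra* were well above background in both E15.5 fractions. Of 12 genes of smooth muscle and pericytes, *Rgs5* (at least 2.33-fold, fitted log2 2.42) and *Kcnj8* (1.79) were higher and *Cspg4* (-1.66) lower in EH. *Rgs5* was well above background on 0 EL arrays. Of 11 epicardial genes 1 was called lower in EH (*Lrrn4*, -2.58), and the log2 fold-change was below 0 for all 11, with a median of -1.19. Of 6 lymphatic genes 2 were called higher, *Lyve1* and *Mmrn1*, neither of them detected. At P2 the leukocyte sums lay between 259.4 and 441.7, and 0 leukocyte and 0 lymphatic genes were called in PH against PL. Of the epicardial genes *Wt1* and *Krt19* were called higher in PH. Of the smooth muscle and pericyte genes *Tagln* and *Cnn1* were higher and *Acta2*, *Cspg4* and *Abcc9* lower, of the fibroblast genes *Ddr2* was higher and *Postn* lower, and of the erythroid genes *Epor* was higher.

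Across the 16 arrays, the genes whose log2 profile was most like the mean of *Cdh5* and *Tie1*, among 16484 detected gene names, were *Pcdh12* (r = 0.993), *She* (0.985), *Ccm2l* (0.981), *Sox7* (0.978), *Cd93* (0.972), *Gimap6* (0.971), *Egfl7* and *Nos3* (both 0.967). Of the other genes described here, *Emcn* had 0.981, *Plvap* 0.979, *Cldn5* 0.951, *Cytl1* 0.924 and *Apln* 0.691, whereas *Lmo2* had 0.423 and *Nfatc1* 0.338. The profile of *Apln* and *Cldn5* was most like that of *Cd34* (0.937), *Tmem255a* (0.935), *Cd93* (0.930) and *Klf2* (0.928). That of the 4 endocardial genes was most like *Nos3* (0.959), *1810011O10Rik* (0.954), *Ahsg* (0.947) and *Egr4* (0.942). *Maged2* (0.941) came close to these, yet hardly varied within EH (24510, 23810, 23230 and 25380 on EH 2, 3, 6 and 8). *Cdh5* had r = 0.953 with the endocardial and 0.882 with the coronary profile, and *Tie1* 0.924 and 0.895. The profiles hold unequal numbers of genes, and whether these values differ was not tested. *Aplnr* was not detected and is thus missing from the coronary profile. These coefficients describe 16 arrays that fall into 4 groups, and mostly the contrast of EH with the other groups.

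Promoters from RefSeq (build GRCm38.p6) were at hand for 5 of the 10 genes, *Cytl1*, *Emcn*, *Tie1*, *Apln* and *Cldn5*. The 250 bases before the start were searched on both strands for the ETS core AGGAAG, since factors of the ETS family act in endothelial genes, and for the GATA motif AGATAA. The ETS letters occurred in 4 of the 5 windows (2 matches in *Emcn*, 1 each in *Cytl1*, *Tie1* and *Apln*) and in 29.5% of 32851 promoters of the same length. The GATA letters occurred in 0 of the 5, and in 9.99% of all. The windows of *Tie1* (chr4:118489850-118490099, minus strand) and *Emcn* (chr3:137340828-137341077, plus strand) are shown for the pair of genes printed above, with ETS matches in capitals, which read CTTCCT on the opposite strand:
Tie1 promoter: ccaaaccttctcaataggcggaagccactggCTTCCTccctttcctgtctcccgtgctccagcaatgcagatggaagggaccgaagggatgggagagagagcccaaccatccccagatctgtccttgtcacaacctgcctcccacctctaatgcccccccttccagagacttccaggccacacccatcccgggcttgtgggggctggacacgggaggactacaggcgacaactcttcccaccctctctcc
Emcn promoter: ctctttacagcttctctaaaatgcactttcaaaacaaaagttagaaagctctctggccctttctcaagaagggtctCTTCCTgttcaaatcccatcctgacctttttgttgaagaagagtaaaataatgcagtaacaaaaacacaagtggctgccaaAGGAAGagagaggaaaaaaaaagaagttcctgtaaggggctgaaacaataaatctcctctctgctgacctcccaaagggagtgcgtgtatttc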

How the data were processed

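RNA of sorted mouse CMs was measured on 16 single-color Agilent arrays, 4 each of EL, EH, PL and PH. The authors deposited scanner files (Feature Extraction 10.7.3.1, per their processing notes), whose processed signal intensity is already background-subtracted, and their own quantile-normalized log2 values, used here as an alternative. Nothing was sequenced, so precision is limited by 4 arrays per group. The share of probes well above background was 38.9% to 41.0% in EL, 40.9% to 46.5% in EH, 35.7% to 39.8% in PL and 37.0% to 40.6% in PH. The total of saturated spots was 0.

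Outlier spots were left out, spots of a probe averaged, and the 55681 probes quantile normalized and transformed to log2. Group means were fitted with limma 3.58.1 in R 4.3.3. Each probe and its Benjamini-Hochberg adjusted p came from the fit over all probes, and the procedure was tested on simulated data. Tables were made with numpy 2.4.6 and pandas 2.3.3, and figures with matplotlib 3.10.9, in Python 3.11.15. Where 1 probe per gene was needed, that with the highest mean signal was taken. Reported were all probes of the 10 genes, up to 4 genes per endothelial list by size of the change in EH against EL, and the genes of most similar profile (Pearson's r). Genes singled out beyond this were chosen after their values were seen. The genes and lists were chosen with earlier results of these data known.

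Sample numbers were checked for pairing on the deviations from group means over 22250 detected probes. At E15.5 Pearson's r between EL and EH of the same number was 0.255, 0.189, 0.450 and 0.379 for numbers 2, 3, 6 and 8. Arrays of unequal numbers were not compared. EL and EH of numbers 2, 6 and 8 shared a slide and those of number 3 did not. A pairing can thus not be told apart from the slide. The main fit did not pair the arrays, and the number served as a block in an alternative. Over all probes, and at P2, 1 pair fell below 0. P-values measure the spread between these pooled samples.

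Alternatives were scaling to the 75th percentile, normexp (offset 50), the deposited values, detected probes only, a floor, the sample number as a block, the slide, the methods' test (analysis of variance with a Tukey test) and each array left out. Probe positions refer to mm9, whose annotation of exons was not used here.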

Additional observations from a re-analysis of the deposited data

Results flagged for a closer look

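A difference between the stages was found for 4 probes by the interaction in limma. For *Plvap* probe 1, the difference between EH and EL exceeded that between PH and PL by 3.40 on the log2 scale (adjusted p = 0.00289). The fitted values were 4.12 for *Emcn* (adjusted p = 0.000805), 4.08 for *Cdh5* (0.0183) and 4.37 for *Tie1* (0.00393). *Emcn*, *Cdh5* and *Tie1* were not well above background on any EL, PL or PH array, so that their values do not measure the size of the difference. With normexp their values were 0.983, 1.48 and 1.5, below 3-fold, and these genes were not called. Stage cannot be told apart from slide, from the depletion of non-myocytes at P2 or from the ERBB-2 gate at E15.5.

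Of 30 groups of 4 arrays in which a probe was well above background at least once, 3 held an array far from the rest by Dixon's limit, which chance gives in about 1 of 20 groups. They were *Nfatc1* probe 2 on PL 4 (6.20, with 18.7 as the highest of the others), *Apln* on PL 4 (6.62, with 26.1 as the highest of the others) and *Lmo2* on EL 6 (52.5, with 31.2 to 31.5 on the others). Both PL 4 signals were not well above background, and the dimmest signal so marked on PL 4 was 22.7. EL 6 was also the EL array with the highest *Cldn5*, *Cdh5* and *Tie1* signals (51.3, 14.4 and 8.47) and the highest leukocyte and erythroid sums (2745 and 113500). Their part in the *Lmo2* value was not tested.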

How the results depend on the processing

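The count of called probes in EH against EL was 9. It lay between 7 and 11 under all alternatives other than normexp, which gave 5, and between 9 and 10 with 1 array left out. With normexp, the interaction was called for 1 probe in place of 4 and EH against PH for 3 in place of 8, as its offset of 50 draws dim signals together. *Cytl1* (0.61), *Emcn* (1.11), *Plvap* probe 2 (0.72) and *Aplnr* (0.77) then stayed below 3-fold in EH against EL, with adjusted p of 0.00837 or less. With dim signals set to a floor, *Cytl1* (1.49) and *Aplnr* (1.47) fell below 3-fold in EH against EL, the interaction was called for 7 probes, *Cytl1*, *Cldn5* and *Plvap* probe 2 included, and EH against PH for 5. At any fold, PH against PL counted 2 probes and EL against PL 1. With 1 array left out the interaction gave 4 to 5, EH against PH 7 to 8, PH against PL 1 and EL against PL 0. With the replicate block, 9 probes were called between the E15.5 fractions, 1 between those of P2 and 4 in the interaction, and no probe gained or lost a call. The median difference between endocardial and coronary genes was 0.49 with the block, -0.01 to 0.92 with 1 array left out and 0.06 with all detected probes. Scaling to the 75th percentile moved the median of all probes to -0.18 in EH against EL and -0.14 in PH against PL, and the floor to -0.32 and -0.27. Fold-changes of PH against PL turned sign in genes that were not called, as values near background: with the floor *Cytl1*, *Emcn*, *Cdh5*, *Tie1* and *Aplnr* were -0.27, the general shift, *Plvap* probe 2 -0.21, *Apln* -0.105 and *Cldn5* -0.00677. With the 75th percentile *Emcn* was -0.13 and *Tie1* -0.0274, and with normexp *Plvap* probe 2 was -0.0484 and *Apln* -0.11. With 1 array left out, PH against PL ranged from -0.0612 to 0.0749 in *Emcn*, -0.0553 to 0.64 in *Plvap* probe 2, -0.27 to 0.415 in *Apln* and -0.00611 to 0.22 in *Aplnr*, and the interaction from -0.31 to 0.0782 in *Nfatc1* probe 1 and -0.27 to 0.0552 in *Lmo2*. Pools of hearts on 4 arrays per group, and signals near background in EL, PL and PH, limit the size of the folds.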
